A study of Homo sapiens with 12 samples.

Results

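Interferon-stimulated genes are the genes that cells switch on when an interferon binds its receptor, and 47 of them were followed here through knockdown of CENPF and FOXM1. The 47 symbols were looked up in the gene column of the authors' edgeR tables and read in the table of normalized counts, which holds 14862 genes in 12 libraries. Of these, 45 were found. All 45 passed the filter on low values (a normalized count of 10 or more in 3 or more libraries), as did 14857 genes in all. By the 8 libraries of replicate numbers 2 and 3 alone 38 would have passed. The other 7 (OAS2, OASL, MX1, MX2, ISG20, IFI27 and XAF1) passed only through the libraries of number 1, where they stood higher, so their difference there is given as a description. RSAD2 and CMPK2, neighbours on chromosome 2 in the RefSeq annotation, were in neither table. They were looked up by gene ID in the FPKM table (reads scaled to exon length and library size). There CMPK2 was listed at 0 in all 12 libraries. RSAD2 was listed at 0.0523 in siNeg, 0.158 in siCENPF and 0.0780 in siCENPF+siFOXM1 of replicate number 1, at 0.00475 in siNeg of number 3, and at 0 in the other 8.

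The cells were hTERT-RPE1, an established human line of retinal pigment epithelial origin that carries telomerase, with no other alteration named in the labels. They received 20 nM of siRNA overnight and were harvested 48 hours later; whether 20 nM is the total or the amount of each siRNA where both were given is not stated in the labels. The 4 groups were siNeg (a control siRNA, labelled wild type), siCENPF (against CENPF, a kinetochore protein), siFOXM1 (against FOXM1, a transcription factor of genes of G2 and M phase) and siCENPF+siFOXM1 (both siRNAs). Each group had 3 libraries of polyA RNA, numbered 1 to 3. The labels do not say what a number marks, nor whether the libraries of a group are separate cultures. The p-values below therefore measure only how far these libraries spread. Sequences of the siRNAs are not used here.

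The targeted transcripts were low in every library given their siRNA. CENPF stood at 827 to 1360 normalized counts in the 6 libraries given its siRNA and at 7448 to 9537 in the other 6. FOXM1 stood at 491 to 822 with its siRNA and at 3394 to 4763 without it. Reads in genes numbered 13671250 to 17968360 per library, apart from 35411230 in siNeg of number 3 and 31302177 in siCENPF of number 3. The 4 libraries of number 1 held 13671250 to 16079871. Of 8 markers of the labelled tissue, RPE65 and TYR were listed at 0 FPKM in all 12 libraries, RLBP1 and TYRP1 at 0.0371 or less, and 4 were in the count table, BEST1 at 10463 to 25694, MITF at 379 to 684, PMEL at 218 to 289 and OTX2 at 28.0 to 78.4 normalized counts. VIM, the vimentin of mesenchymal and cultured cells, stood at 587 to 688 FPKM. Of 13 markers of blood and endothelial cells, 4 were at 0 in all libraries. Their summed FPKM was 0.377 to 0.633 in number 1, 0.566 to 0.717 in number 2 and 0.330 to 0.480 in number 3.

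As background, nucleic acid sensors such as RIG-I and MDA5 signal through kinases to the transcription factors IRF3, IRF7 and NF-kB, which switch on interferon beta. Secreted interferon binds the receptor of IFNAR1 and IFNAR2, the kinases JAK1 and TYK2 phosphorylate STAT factors such as STAT2, and these join IRF9 in a complex that binds a short DNA word, the interferon-stimulated response element. Interferon gamma works through another word, the gamma-activated site. The induced genes encode sensors, enzymes that block viral RNA and protein synthesis, the ubiquitin-like protein ISG15 and its enzymes, and proteins of antigen presentation.

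The response element is shown here because it was not used to choose the genes and many of them carry it near their start. RefSeq promoters (GRCh38.p14, 250 bases before to 50 after each start) were matched for 38 of the 45 genes, DDX58 under its current symbol RIGI. The word searched was GAAANNGAAA on either strand, and 26 of the 38 (68.4%) held it in at least 1 promoter, against 1195 of 27305 genes in the RefSeq table (4.38%). The gamma-activated word TTCNNNGAA, which reads the same on both strands, was in 12 of the 38 (31.6%), against 9.38% of all genes. Both words were in 8, and neither was in another 8. Overlapping matches were all counted, and 15 of the 38 had the first word more than once in 1 promoter. In the windows below, read 5′ to 3′ on the gene's strand, the capitals mark the GAAA or TTTC parts of that word.
IFIT1: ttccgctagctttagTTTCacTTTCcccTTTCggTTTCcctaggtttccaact
IFIT3: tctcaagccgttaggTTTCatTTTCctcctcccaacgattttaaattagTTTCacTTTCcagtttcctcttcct
ISG15: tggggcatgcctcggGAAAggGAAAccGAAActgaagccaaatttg
IFI27: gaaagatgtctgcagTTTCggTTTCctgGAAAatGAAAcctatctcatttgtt
BST2: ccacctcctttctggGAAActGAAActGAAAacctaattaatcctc
DDX60: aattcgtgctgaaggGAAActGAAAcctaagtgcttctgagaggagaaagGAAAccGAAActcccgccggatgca
PARP9: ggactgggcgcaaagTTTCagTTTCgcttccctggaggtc
TAP1: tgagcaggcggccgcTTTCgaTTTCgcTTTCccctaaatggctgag
The windows lie at chr10:89392492-89392544 (plus strand), chr10:89327826-89327899 (plus strand), chr1:1013369-1013414 (plus strand), chr14:94110613-94110665 (plus strand), chr19:17405730-17405775 (minus strand), chr4:168318781-168318855 (minus strand), chr3:122564317-122564356 (minus strand) and chr6:32853808-32853853 (minus strand), in that order, all upstream of the RefSeq start. The gene bounds in the authors' tables reach further upstream, and all of these windows but those of IFIT1 and BST2 overlap them. The IFIT3 window does so only with its last bases, past both marked words. PARP9 carries 1 word and IFI27 carries it on both strands. In ISG15, BST2 and TAP1 the words overlap, with a GAAA or TTTC part in common. Among the roles used below, the word was in 9 of 10 matched antiviral effectors, 4 of 6 RNA sensors and RNA-activated enzymes, 3 of 3 genes of ADP-ribosylation, and 0 of 3 matched transcription factors. The shares in the ISG15 system, IFI genes and others, and antigen processing lay between the highest and the lowest of these. The mean of number 1 was 5.52 times that of the other libraries at the median of the 26 genes with the word and 3.50 times at the median of the 12 without it, which include XAF1 (80.8 times) and OAS1 (32.0 times). Genes without a matched promoter are in neither median. They are OAS2 (102 times), MX2 (80.5), OASL (73.0), USP18 (13.9), IFIT2 (10.3), IRF7 (6.95) and DHX58 (2.77). No match says only that these letters are not in this window.

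Most of the 45 genes stood far higher in the 4 libraries of number 1 than in the 8 libraries of numbers 2 and 3, whichever siRNA the cells had received. Adjusted for siRNA group, 44 of 45 were higher in number 1 (limma, adjusted p under 0.05) and none was lower, with a median log2 difference of 2.34, against -0.0018 over all 14857 genes. Of the 38 that pass the filter without number 1, 37 were called higher. The background was large too, since 16.5% of all genes (2451) were called higher and 14.5% (2147) lower; on FPKM, which scales libraries differently, the split was 1571 and 2559. In 42 of 45 (93.3%) every library of number 1 lay above every library of numbers 2 and 3, which held for 4.29% of all genes. The mean of number 1 was 5.52 times that of the other 8 libraries at the median gene, more than 10 times in 15 genes, more than 2 times in 40, and ran from 1.01 times (IRF1) to 102 times (OAS2). When all genes were ranked by the log2 difference, 9 of the first 10 and 39 of the first 100 were among the 45. The 44, the 42, these ranks and the counts by role below include genes that passed the filter only through number 1. In bulk RNA, fewer cells that express a gene and less RNA in each cell cannot be told apart.

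**Figure D1:**
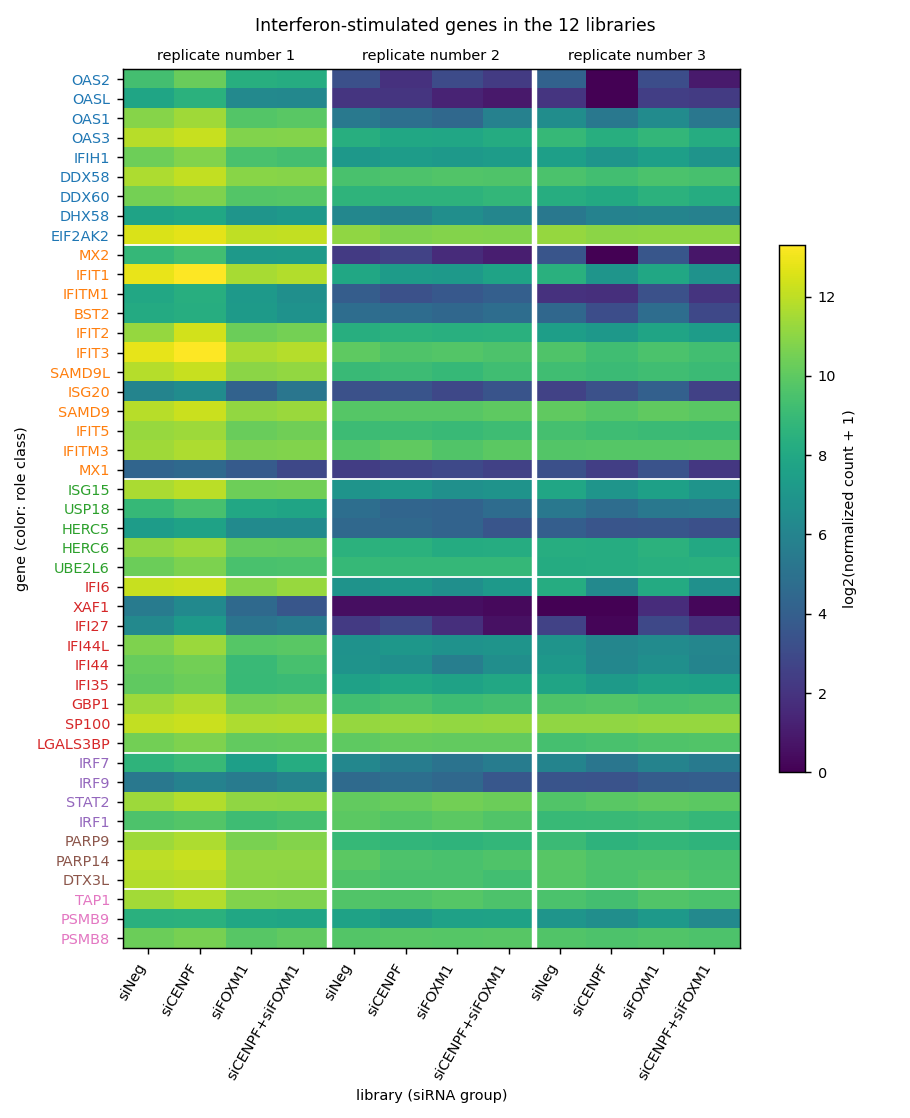
Level of the 45 genes, as log2(normalized count + 1) by color, in the 12 libraries, in blocks by replicate number and, within a block, in the order siNeg, siCENPF, siFOXM1, siCENPF+siFOXM1. Rows run in blocks from RNA sensors and RNA-activated enzymes at the top through antiviral effectors, the ISG15 system, IFI genes and others, transcription factors and ADP-ribosylation to antigen processing. The 4 libraries of number 1 are brighter in nearly every row.

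In the sentences that follow, the 4 values of a number are normalized counts in siNeg, siCENPF, siFOXM1 and siCENPF+siFOXM1, in this order. Differences are number 1 minus the mean of numbers 2 and 3 on the log2(normalized count + 1) scale. Coordinates are hg38, from the authors' tables.

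All 9 RNA sensors and RNA-activated enzymes rose in number 1, with a median log2 difference of 2.75. EIF2AK2 (chr2:37099210-37157065, minus strand), the kinase PKR that stops translation when it binds double-stranded RNA, stood at 5923, 6979, 4165 and 4329 in number 1, 2190.3, 1711, 1826 and 1746 in number 2 and 2349, 2053, 2109 and 2122 in number 3. DDX58 (chr9:32455705-32526324, minus strand), which encodes RIG-I, the sensor of RNA with a 5′ triphosphate, stood at 3202, 4362, 1983 and 1924 in number 1, 718, 778, 826 and 805 in number 2 and 737, 629, 742 and 679.7 in number 3. The lowest library of number 1 was above 2 times the mean of the other 8 for DDX58, and the groups did not overlap for either gene. OAS3 (chr12:112938352-112973249, plus strand), which makes the oligoadenylates that switch on the ribonuclease RNase L, stood at 3768, 4713, 1790.4 and 1793 in number 1, 324, 238, 233 and 289 in number 2 and 483, 326, 439 and 305 in number 3. Its family members OAS1, OAS2 and OASL moved the most in this class. OAS1 stood at 1883, 2673, 849 and 969 in number 1, 40.7, 28.2, 21.4 and 55.8 in number 2 and 90.4, 39.2, 85.0 and 37.2 in number 3. OAS2 stood at 642, 1220.2, 328 and 296 in number 1, 8.61, 2.66, 7.08 and 4.04 in number 2 and 17.5, 0, 7.91 and 0.946 in number 3, and OASL, a family member without the synthetase activity, at 225, 366, 77.1 and 73.3 in number 1, 3.16, 3.11, 1.49 and 0.869 in number 2 and 3.09, 0, 4.54 and 4.04 in number 3. Outside number 1 OAS2 and OASL were near the limit of detection, OAS2 with 58 reads over 8 libraries against 1936 over the 4 of number 1, and OASL with 22 reads over the 8. Log2 differences were 6.69 ± 0.72 (SE) for OAS2, 5.57 ± 0.50 (SE) for OASL and 4.97 ± 0.45 (SE, adjusted p = 0.000265) for OAS1. On log2(FPKM + 0.5), a scale that compresses low values, OAS2 differed by 2.20 and OASL by 1.90. OAS1, OAS3 and OAS2 lie side by side at chr12:112906777-113011723. The other sensors rose less, IFIH1 (MDA5) by 7.29 times in the means, DDX60 by 3.45 times and DHX58 (LGP2) by 2.77 times.

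Of 14 listed antiviral effectors 12 were measured, and all 12 were higher in number 1 (median log2 difference 2.62). The IFIT proteins bind foreign RNA ends and block its translation. IFIT3 (chr10:89327894-89340971, plus strand) stood at 7159.7, 9819, 3171 and 3553 in number 1, 1034, 802, 864 and 754 in number 2 and 794, 586, 728 and 624 in number 3. IFIT1 (chr10:89392546-89406486, plus strand) stood at 7430.5, 10091, 2994 and 3471 in number 1, 243, 155, 142 and 211 in number 2 and 349, 123, 242 and 110.0 in number 3, a log2 difference of 4.84 ± 0.40 (SE, adjusted p = 0.000171). SAMD9 (chr7:93099513-93118023, minus strand), a restriction factor of poxviruses, stood at 3783, 4764, 2301 and 2554 in number 1, 886, 929, 910.4 and 1028 in number 2 and 1063, 887, 1054 and 945 in number 3. In all 3 genes the lowest library of number 1 was siFOXM1 and the highest siCENPF, and no library of numbers 2 or 3 reached them. IFIT2, IFIT3, IFIT1 and IFIT5 form a cluster at chr10:89301955-89421001, and their means were 10.3, 7.66, 30.5 and 3.38 times higher in number 1. The GTPases MX1 and MX2 also neighbour each other. MX2 stood at 467, 614, 146 and 150.3 in number 1, 3.77, 5.17, 2.10 and 1.21 in number 2 and 10.2, 0, 11.0 and 0.766 in number 3, a log2 difference of 6.20 ± 0.68 (SE), and of 1.34 on log2(FPKM + 0.5). MX1, the classical influenza restriction factor, stood at 19.3, 22.4, 13.0 and 6.41 in number 1, 4.38, 5.56, 6.74 and 4.90 in number 2 and 8.43, 4.49, 9.43 and 3.50 in number 3. Its difference was 1.16 ± 0.39 (SE), given as a description, and the libraries overlapped. MX1 is counted among the genes called. This call was lost without siNeg of number 1, without siCENPF of number 1, against number 3 alone and on FPKM. BST2, the tether of budding virions, and IFITM1, a membrane factor against virus entry, had log2 differences of 3.37 ± 0.30 (SE, adjusted p = 5.98e-07) and 4.54 ± 0.32 (SE, adjusted p = 2.22e-10). IFITM1 shares 32.5% of its annotated exon bases with IFITM2 on the same strand, so its reads are uncertain. IFITM3 was 2.57 times, SAMD9L 5.74 times and the exonuclease ISG20 5.79 times higher in the means.

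The ISG15 system, a ubiquitin-like modifier with its ligases and protease, rose in all 5 genes, with a median log2 difference of 3.06. ISG15 (chr1:1001138-1014541, plus strand), the modifier, stood at 3179, 3885, 1295 and 1368 in number 1, 117, 142, 99.8 and 113 in number 2 and 234, 121, 190.5 and 116 in number 3. HERC6 (chr4:88378739-88443111, plus strand), a HECT-type ligase, stood at 2217, 2612, 1145 and 1087 in number 1, 368, 359, 295 and 297 in number 2 and 316, 296, 366 and 259 in number 3. UBE2L6 (chr11:57551656-57568284, minus strand), the conjugating enzyme, stood at 1277, 1642, 715 and 731 in number 1, 479, 463, 459.5 and 467 in number 2 and 293, 301, 339 and 349 in number 3. Thus ISG15 differed by 3.98 ± 0.31 (SE, adjusted p = 0.000134) and UBE2L6 by 1.40 ± 0.23 (SE, adjusted p = 0.00384) on the log2 scale. USP18, the protease that removes ISG15 and also damps the interferon receptor, was 13.9 times higher in the means and HERC5, the main ISG15 ligase, 9.08 times.

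The 9 IFI genes and others all rose, from LGALS3BP, a secreted glycoprotein (1.45 times in the means), to XAF1, a pro-apoptotic protein (80.8 times). SP100 (chr2:230415942-230544090, plus strand), a component of nuclear bodies, stood at 4265, 4866, 3271 and 3389 in number 1, 2389, 2448, 2296 and 2345 in number 2 and 2206, 2182, 2312 and 2346 in number 3. Its groups were close but did not overlap, with a log2 difference of 0.75 ± 0.08 (SE, adjusted p = 9e-05). IFI6 (chr1:27666061-27672218, minus strand), a small membrane protein, stood at 4628, 5070.0, 1915 and 2447 in number 1, 113, 128, 98.5 and 146 in number 2 and 299, 76.2, 283 and 99.9 in number 3. GBP1 (chr1:89052319-89065360, minus strand), a guanylate-binding GTPase, stood at 2599.8, 3394, 1464 and 1597 in number 1, 620.4, 717, 579.8 and 644 in number 2 and 807, 849, 750.3 and 801 in number 3. IFI6 differed by 4.54 ± 0.48 (SE, adjusted p = 0.000547), the largest log2 difference in this class, and GBP1 by 1.57 ± 0.17 (SE, adjusted p = 0.000572). IFI44L, IFI44, IFI27 and IFI35 were 15.2, 10.5, 21.1 and 4.07 times higher. On log2(FPKM + 0.5) the difference was 0.75 for IFI27 and 0.30 for XAF1. XAF1 had 4 reads in the 8 libraries of numbers 2 and 3 together, and 38.3% of its exon bases overlap PRAL on the opposite strand, which moved from a mean of 0.445 to 23.2 normalized counts. With no strand setting known for the counting, reads of XAF1 and PRAL cannot be told apart. The LGALS3BP libraries overlapped, and its call was lost against number 2 alone (adjusted p = 0.0943).

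Transcription factors were the most uneven class, with 3 of 4 higher. STAT2 (chr12:56341597-56360155, minus strand), a STAT factor specific to interferon signalling, stood at 2636, 3536, 2202 and 2091 in number 1, 1104, 1194, 1423 and 1277 in number 2 and 835, 940.4, 1055 and 981 in number 3. IRF7 (chr11:612553-615999, minus strand), which amplifies interferon transcription, stood at 402, 507, 184 and 296 in number 1, 69.5, 47.0, 32.6 and 46.7 in number 2 and 63.5, 36.2, 60.5 and 43.4 in number 3. IRF1 (chr5:132481609-132490798, minus strand), which answers to interferon gamma and to NF-kB as well, stood at 769, 869, 585 and 654 in number 1, 977, 843, 1003 and 838 in number 2 and 489, 511, 556 and 467 in number 3. STAT2 differed by 1.23 ± 0.15 (SE, adjusted p = 0.000828) and IRF7 by 2.72 ± 0.21 (SE, adjusted p = 1.3e-07). IRF1 was the gene of the 45 that was not called, at 0.07 ± 0.08 (SE, adjusted p = 0.586). Its number 1 libraries lay between the others, above all of number 3 and with only siCENPF inside the range of number 2. Against number 2 alone IRF1 was lower in number 1, by a log2 difference of -0.36 (adjusted p = 0.00542), and against number 3 alone it was higher, by 0.49 (adjusted p = 0.00175). It also passed the threshold without siFOXM1 of number 1, at 0.21 (adjusted p = 0.0358). IRF9 was low, at 38.8 to 61.0 in number 1 and 9.40 to 26.5 in the other 8, a log2 difference of 1.65 ± 0.26 (SE, adjusted p = 2.34e-05). Other transcripts overlap part of these genes, 48.4% of IRF9 exon bases on the same strand and 22.0% of IRF1 exon bases on the opposite strand.

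PARP9, DTX3L and PARP14, which are on chromosome 3, rose together, with a median log2 difference of 1.95. PARP14 (chr3:122680618-122730840, plus strand), an ADP-ribosyltransferase, stood at 3993, 4731, 2215 and 2175 in number 1, 984, 764, 712 and 807 in number 2 and 919, 761, 757 and 724 in number 3. DTX3L (chr3:122564238-122575203, plus strand), a ubiquitin ligase that pairs with PARP9, stood at 3514, 3782, 2069.9 and 2059 in number 1, 783, 718, 717 and 619 in number 2 and 883, 733, 869 and 744 in number 3. PARP9 (chr3:122527924-122564577, minus strand) stood at 2659, 3234, 1579.7 and 1824 in number 1, 486, 429, 404 and 446 in number 2 and 536, 393, 440.3 and 403 in number 3. All 3 kept clear of the other 8 libraries, and PARP9 differed by 2.34 ± 0.16 (SE, adjusted p = 3.42e-05). PARP9 and DTX3L start from opposite strands of the same region and share 217 exon bases.

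Antigen processing showed the smallest differences (median log2 difference 1.04), though all 3 genes were called higher and none overlapped. TAP1 (chr6:32845209-32853978, minus strand), a subunit of the peptide transporter, stood at 2771, 3458, 1779.7 and 1694 in number 1, 817, 798, 896 and 766 in number 2 and 752, 635, 837 and 729.8 in number 3. PSMB8 (chr6:32840717-32844703, minus strand), a subunit of the immunoproteasome, stood at 1268, 1548, 919 and 1059 in number 1, 867, 914, 899.6 and 903 in number 2 and 826, 781, 828 and 779.6 in number 3. PSMB9 (chr6:32844136-32859585, plus strand), a further such subunit, stood at 343, 365, 238 and 222 in number 1, 203, 142, 191 and 205 in number 2 and 122, 92.5, 139 and 75.9 in number 3. TAP1 differed by 1.58 ± 0.20 (SE, adjusted p = 0.00137), PSMB9 by 1.04 ± 0.16 (SE, adjusted p = 0.000149) and PSMB8 by 0.47 ± 0.09 (SE, adjusted p = 0.00199). The 3 genes adjoin at chr6:32840717-32859585, and 20.6% of PSMB8 exon bases overlap TAPSAR1 on the opposite strand.

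**Figure D2:**
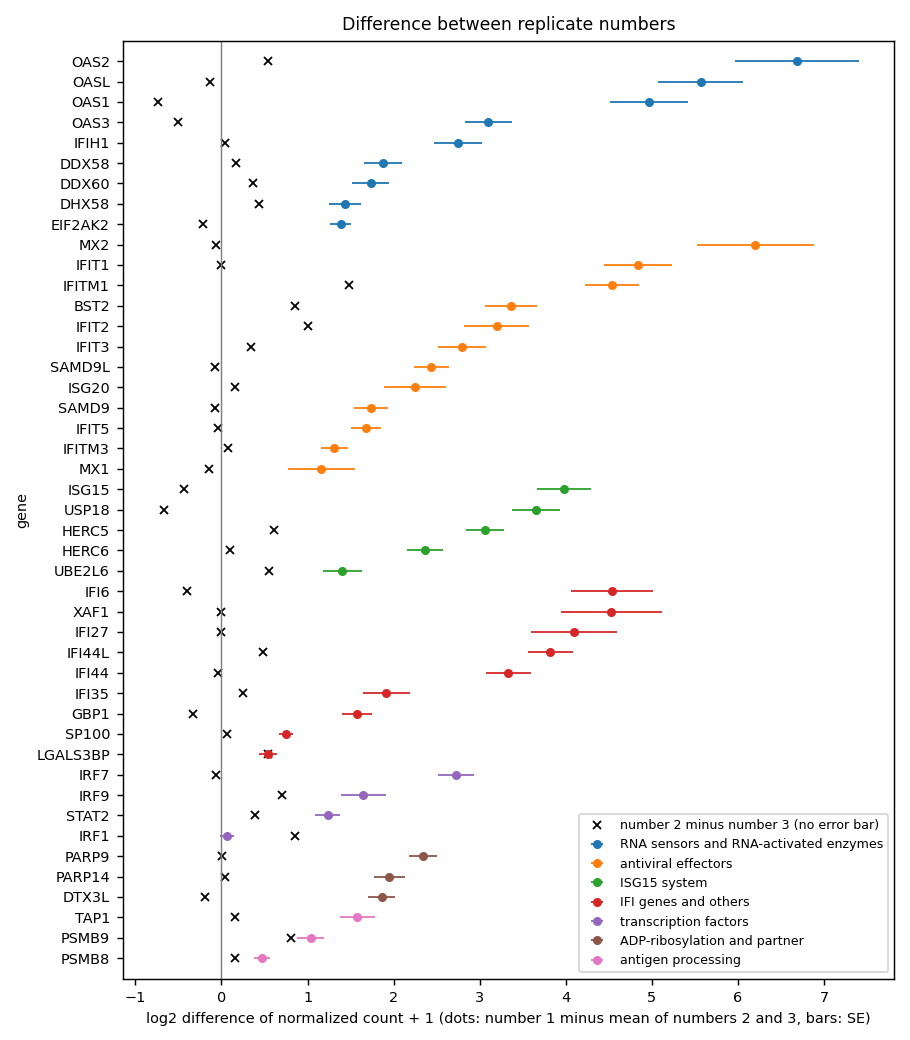
Log2 difference of each gene, with dots for number 1 minus the mean of numbers 2 and 3 (bars are SE) and crosses for number 2 minus number 3, colored by role. Dots run from 0.07 for IRF1 to 6.69 for OAS2, while crosses run from -0.74 for OAS1 to 1.48 for IFITM1.

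Few of the genes differed between numbers 2 and 3. In number 2 against number 3, 4 of 45 were called higher, where 16.2% of all genes were (2414, with 2567 lower), and none was called lower. Log2 differences (number 2 minus number 3) were 1.48 ± 0.37 (SE, adjusted p = 0.00306) for IFITM1, 0.85 ± 0.10 (SE, adjusted p = 1.61e-06) for IRF1, 0.81 ± 0.18 (SE, adjusted p = 0.00324) for PSMB9 and 0.54 ± 0.12 (SE, adjusted p = 0.00522) for LGALS3BP. The IFITM1 call was lost with edgeR (log2 difference 1.04, adjusted p = 0.0831) and on FPKM (0.23, adjusted p = 0.541). Without siCENPF of number 1, which enters this fit only through the spread, 13 members were called. The median over the 45 was 0.07.

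The siRNAs moved none of the 45 genes past the threshold. Against siNeg, limma called 0 members with siCENPF, 0 with siFOXM1 and 0 with both siRNAs, and edgeR also called 0 in each. No member had an unadjusted p under 0.05 in any of the 3. The same fits called 0.337%, 0.66% and 0.458% of all genes, which are 50, 98 and 68 genes. Within a group the SD over the 3 libraries exceeded the mean in genes such as IFIT1 and ISG15. IFIT1 averaged 2674 ± 4119 normalized counts (SD, n = 3) in siNeg, 3456 ± 5746 in siCENPF, 1126 ± 1619 in siFOXM1 and 1264 ± 1912 with both. ISG15 averaged 1177 ± 1735, 1383 ± 2168, 528 ± 666 and 532 ± 724 in the same order. With the replicate number as a block the fits called 4.52%, 8.72% and 7.9% of all genes (671, 1295 and 1174) and still 0 members, of which 0, 2 and 2 had an unadjusted p under 0.05. HERC5 with both siRNAs came nearest under the block, at a log2 difference of -0.88 ± 0.29 (SE, adjusted p = 0.0643). The median member difference was -0.04 with siCENPF, -0.32 with siFOXM1 and -0.39 with both, on the log2 scale. With edgeR the medians were 0.23, -0.67 and -0.59, so the direction for siCENPF depends on the tool. All 3 medians also changed sign when 1 library was left out. Without siNeg of number 1 they were 0.77, 0.55 and 0.43, and without the siRNA library of number 1 they were -0.96, -0.93 and -1.003. These fits held no term for the number, so number 1, where the genes were high, was then missing from a single arm. Such a change of sign cannot tell an siRNA difference from a difference between the numbers. In the authors' deposited table no member passed 0.05 either, and the median log2 fold changes were 0.23, -0.67 and -0.60 over 45, 43 and 43 members.

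Within number 1, where the genes were high, both libraries without FOXM1 siRNA stood above both with it in nearly all of them. Reads of the 45 genes made up 0.474% of reads in siNeg, 0.602% in siCENPF, 0.265% in siFOXM1 and 0.284% with both siRNAs, against 0.0896% to 0.109% in the 8 libraries of numbers 2 and 3. The siCENPF library was above siNeg in 45 of 45 genes (50% of all genes), by a median log2 difference of 0.32. The siFOXM1 library was below siNeg in 44 of 45, at a median of 54.9% of the siNeg level, and siCENPF+siFOXM1 in 44 of 45, at 57.3%. Both libraries without FOXM1 siRNA lay above both with it in 44 of 45 genes, against 20.8% of all genes. The lowest library was siFOXM1 in 29 genes and siCENPF+siFOXM1 in 15. IRF9 was the exception, at 38.8, 58.5, 44.9 and 61.0 normalized counts. ISG20 had the lowest siFOXM1 level, at 28.3% of siNeg, and STAT2 was among the least different, at 83.5%. The largest siCENPF difference was that of IFIT2, at 2321, 5445, 1275 and 1483 in the 4 libraries. These are single libraries, so the differences within a number have no replicate check.

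**Figure D3:**
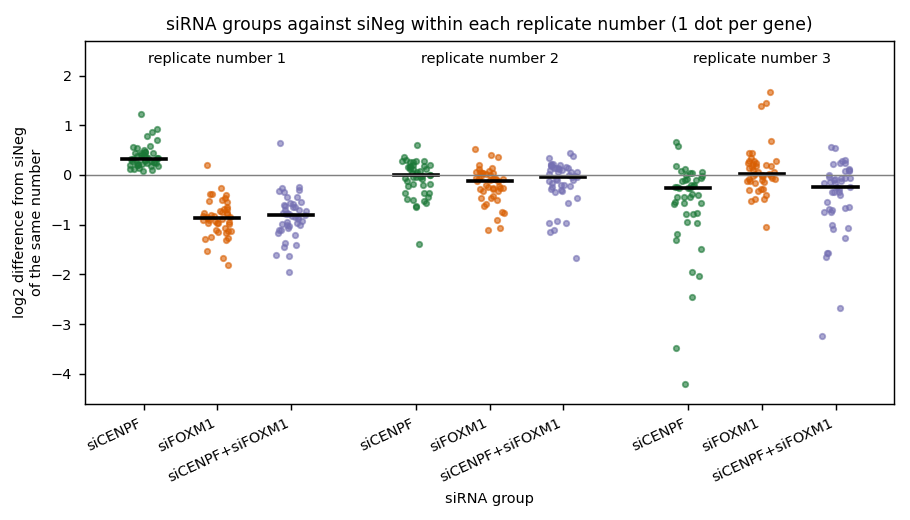
Log2 difference of each siRNA group from siNeg of the same replicate number, 1 dot for each of the 45 genes, with black bars for the medians. In number 1 the siCENPF dots lie above 0 and nearly all dots of both groups with FOXM1 siRNA below it; number 2 centers near 0; in number 3 the low tail belongs to the groups with CENPF siRNA.

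In number 2 both libraries without FOXM1 siRNA lay above both with it in 12 of 45 genes, against 17.9% of all genes. Its medians were -0.01 for siCENPF, -0.12 for siFOXM1 and -0.04 for both siRNAs against siNeg, with siCENPF above siNeg in 21 of 45 genes and siFOXM1 below it in 32. Number 3 showed another order. There siCENPF was below siNeg in 36 of 45 genes (median log2 difference -0.27) and siCENPF+siFOXM1 in 34 (-0.24), while siFOXM1 was below in 21 (0.01). In 28 of 45 genes siNeg and siFOXM1 of number 3 both lay above both libraries with CENPF siRNA, against 16.5% of all genes. In number 2 this held for 6 of 45, against 19.4% of all genes, and in number 1 for 0 of 45, against 16.7%. Both libraries of number 3 without FOXM1 siRNA lay above both with it in 3 of 45 genes, against 22.3% of all genes. IFI6 of number 3 stood at 299, 76.2, 283 and 99.9, IFIT1 at 349, 123, 242 and 110.0, OAS1 at 90.4, 39.2, 85.0 and 37.2 and BST2 at 21.0, 7.83, 25.6 and 6.43. The libraries with CENPF siRNA were the lower pair in all 4 genes. With 2 libraries against 2 in a single number, the smallest two-sided p an exact permutation test can give is 0.333, so no test was made.

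Whether an siRNA acted differently in number 1 was tested as an interaction, the siRNA difference in number 1 minus that in numbers 2 and 3. Limma called 0 genes and 0 members for each siRNA group, and so did edgeR. At an unadjusted p under 0.05 stood 0.788%, 1.04% and 0.74% of all genes for siCENPF, siFOXM1 and both siRNAs, and 5, 14 and 9 of the 45 members. Member medians of the interaction were 0.53, -0.77 and -0.61 on the log2 scale. The values nearest to a call were those of OAS2 for siCENPF (3.72 ± 1.19 SE, adjusted p = 1), IFIT5 for siFOXM1 (-0.77 ± 0.21 SE, adjusted p = 1) and IFITM3 for both (-0.73 ± 0.21 SE, adjusted p = 1). This fit leaves 4 residual degrees of freedom. It holds no term for number 2 against number 3, so differences between those numbers count as spread and weaken the test. The siRNA order within number 1 is therefore not shown to differ from that in the other numbers, nor shown to be the same.

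With number 1 left out, an alternative added after seeing the data, limma called 0 members for each siRNA group without the block and 1, 2 and 1 with it. The same block fits called 1.95%, 4.53% and 3.63% of all genes, so the share of members was near that of all genes. The members called were IFIT3, lower with siCENPF (log2 difference -0.40 ± 0.09 SE, adjusted p = 0.0269) and with both siRNAs (-0.40 ± 0.09 SE, adjusted p = 0.0193), and, with siFOXM1, STAT2, which was higher (0.35 ± 0.08 SE, adjusted p = 0.0136), and PARP14, which was lower (-0.37 ± 0.09 SE, adjusted p = 0.0235). The median of the 45 was -0.20 with siCENPF, -0.05 with siFOXM1 and -0.21 with both.

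Upstream of these genes, interferon beta was detected only in number 1. IFNB1, interferon beta, is outside the count table, but its FPKM values are whole reads over its 859 exon bases (GENCODE v29), at 4, 13, 2 and 2 reads in siNeg, siCENPF, siFOXM1 and siCENPF+siFOXM1 of number 1. It had 0 reads in the other 8 libraries, where a count of 0 allows up to 3 reads per library by counting error alone. As FPKM this was 0.290, 1.09, 0.170 and 0.154. Its highest library was siCENPF, which was also the highest of number 1 in 44 of the 45 genes. Of the 22 listed interferons 14 were at 0 FPKM in all libraries, among them interferon gamma (IFNG). IFNA1, an interferon alpha, was above 0 in all 12, at 0.0440 to 0.335 FPKM in number 1 and 0.0478 to 0.535 in the others. Interferon epsilon (IFNE) was the only one in the count table and did not pass the test, at 31.3 to 74.9 normalized counts in number 1 and 31.7 to 82.0 in the others. IFNL2, an interferon lambda, had 4 reads in siCENPF+siFOXM1 of number 1 and 0 elsewhere.

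Receptors and kinases differed little between the numbers. None of 5 measured interferon receptor genes passed the test in number 1 against 2 and 3. Of all genes 16.5% were called higher there and 14.5% lower. IFNAR1 stood at 1494 to 1858 in number 1 and at 1342 to 1764 in the others, and IFNAR2 at 273 to 329 and 271 to 374. Of the JAK-STAT genes reported here, STAT3 rose by a log2 difference of 0.19 ± 0.05 (SE, adjusted p = 0.00407), while JAK1 (-0.08) and TYK2 (0.01) did not pass. Of 9 negative regulators none rose and 1 fell (11.1%). This was SOCS3, by a log2 difference of -0.45 ± 0.07 (SE, adjusted p = 5.16e-05). Of 17 adaptors and kinases of nucleic acid sensing 3 rose and 2 fell (17.6% and 11.8%), near the shares over all genes of 16.5% and 14.5%. The double-stranded RNA receptor TLR3 differed by 1.46 ± 0.21 (SE, adjusted p = 3e-05), its adaptor TICAM1 by 0.40 ± 0.07 (SE, adjusted p = 9.27e-05), the nucleotidase SAMHD1 by 1.65 ± 0.17 (SE, adjusted p = 0.000448) and IRF3 by -0.19 ± 0.06 (SE, adjusted p = 0.0226).

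Other interferon-stimulated genes, kept in a separate list of 38, moved the same way as the 45. Of 35 measured 34 rose in number 1 and none fell, with a median log2 difference of 1.04. Over all genes 16.5% were called higher and 14.5% lower. PARP12 differed by 1.38 ± 0.09 (SE, adjusted p = 6.19e-10), the peptidase LAP3 by 1.08 ± 0.08 (SE, adjusted p = 3.94e-08), BATF2 by 3.27 ± 0.38 (SE, adjusted p = 3.24e-07) and ZC3HAV1, the zinc-finger antiviral protein, by 0.92 ± 0.08 (SE, adjusted p = 6.35e-07). Of 14 genes of class I antigen presentation 10 rose and none fell (median 0.22), led by the peptide transporter TAP2 (0.91 ± 0.06 (SE, adjusted p = 6.61e-11)) and the activator NLRC5 (1.12 ± 0.11 (SE, adjusted p = 7.36e-06)). HLA-C followed with 0.41 ± 0.06 (SE, adjusted p = 5.34e-05) and the proteasome activator PSME2 with 0.24 ± 0.05 (SE, adjusted p = 0.000629). Of 8 measured genes that lean to interferon gamma 4 rose (50%) and 1 fell (12.5%, near the share of all genes). They included GBP3 at 0.59 ± 0.05 (SE, adjusted p = 4.96e-09), WARS at 0.80 ± 0.08 (SE, adjusted p = 7.84e-06), GBP5 at 1.24 ± 0.29 (SE, adjusted p = 0.002) and, downward, GBP2 at -0.55 ± 0.12 (SE, adjusted p = 0.000828). GBP2 was lower in number 1 only against number 2, at 100.4 to 107, 227 to 256 and 74.7 to 134 normalized counts in numbers 1, 2 and 3. None of the 5 interferon-inducible chemokines was in the count table. CXCL10 had 3 reads in siCENPF and 1 in siCENPF+siFOXM1 of number 1, CCL5 was above 0 FPKM in all 4 libraries of number 1, CXCL11 in 2 of them, and all were at 0 in the other 8.

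**Figure D4:**
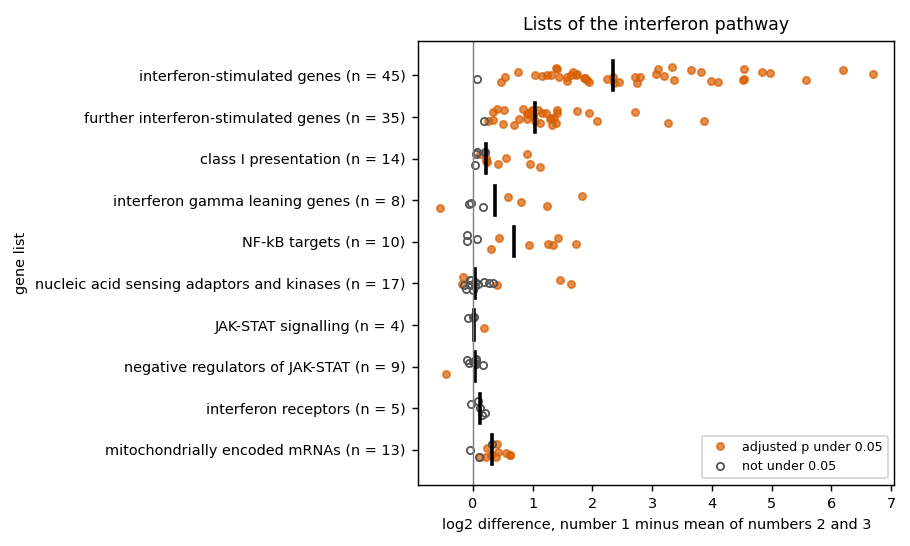
Log2 difference of number 1 from the mean of numbers 2 and 3 for the genes of 10 lists, 1 dot per gene, filled where the adjusted p was under 0.05, with black bars for medians. The 45 genes reach 6.69, the further interferon-stimulated genes 3.86, and receptors and the JAK-STAT genes shown stay near 0.

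Genes outside the interferon system differed between the numbers as well, and their part in the result was not tested. Of all genes 16.5% were called higher in number 1 and 14.5% lower. Of 10 measured NF-kB targets 7 were higher in number 1 and none lower (median 0.68), with CXCL8 at 1.42 ± 0.13 (SE, adjusted p = 4.09e-08), TNFAIP3 at 1.26 ± 0.13 (SE, adjusted p = 3.61e-07), NFKB2 at 0.31 ± 0.05 (SE, adjusted p = 2.09e-05) and CXCL3 at 1.73 ± 0.32 (SE, adjusted p = 0.00017). CXCL8 was at 288 to 579, 90.4 to 105 and 185 to 264 normalized counts in numbers 1, 2 and 3. Of 13 mitochondrially encoded mRNAs 10 were higher (median 0.32), with summed FPKM of 24218 to 26274 in number 1 and 18257 to 22160 in the other 8. MT-ND2 differed by 0.62 ± 0.04 (SE, adjusted p = 1.22e-10). Of 5 measured genes in a list of epithelial and mesenchymal markers, 60% were called lower and 20% higher. Keratins KRT7, KRT8 and KRT18 were lower, KRT7 by -0.75 ± 0.10 (SE, adjusted p = 5.76e-06), but in KRT7 and KRT8 number 1 overlapped number 3. KRT7 stood at 150.3 to 219, 430.2 to 496 and 180.4 to 287 and KRT8 at 6032 to 6806, 8536 to 9906 and 6153 to 6903 normalized counts in numbers 1, 2 and 3. BEST1 was higher, by 0.48 ± 0.06 (SE, adjusted p = 1.75e-05), the only called gene of the retinal pigment epithelium list. Outside all lists, the genes higher in number 1 with the 5 smallest adjusted p, and 1 tied with the fifth, were HSPA5, a chaperone of the endoplasmic reticulum, CD274, which encodes the checkpoint ligand PD-L1 and answers to interferon, ADAMTS1, DUSP5, the stress factor ATF3 and the amino acid transporter subunit SLC3A2. Their log2 differences were 0.76, 1.30, 0.77, 0.88, 2.05 and 0.91.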

How the data were processed

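PolyA RNA-seq of 12 libraries was analysed from deposited tables. The submitters' processing notes name hg38 and the tools TopHat, edgeR, Trimmomatic and bcl2fastq, without versions. The main table deposited by the authors holds normalized counts, a signal on a count scale with column sums of 18504189 to 19762137; the sources used here do not give the method. At low values it is not proportional to reads: of 540 member values, 13 had 0 reads and a normalized count above 0. The authors' FPKM table holds 60279 genes. Its exon lengths exceed merged GENCODE v29 exons (median 2.23 times for the members), so levels were not compared between genes. The authors' edgeR tables hold CPM, log2 fold changes and p-values for 14306, 14393 and 14336 genes, per the file headers. Whole reads were recovered from the deposited CPM in 100% of values (within 0.01 read). No column of another sample was present.

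The test was limma 3.58.1 (R 4.3.3; trend, robust) on log2(normalized count + 1) over genes at 10 or more normalized counts in 3 or more libraries, two-sided, with Benjamini-Hochberg adjustment over all genes and a threshold of 0.05. Number 1 was compared with the mean of numbers 2 and 3, and number 2 with 3, with siRNA group as a term (6 residual degrees of freedom); siRNA groups were compared with siNeg without a block (8); interactions left 4. The fits of siFOXM1 against siNeg, of number 1 against the others and of the siFOXM1 interaction were run on simulated data. Those data held no difference between the numbers beyond the change planted, so the run does not cover the spread between numbers seen here. For the interaction, only the share of false calls was checked. Alternatives were a pseudocount of 5, no filter, FPKM + 0.5, edgeR 4.0.16 quasi-likelihood on the recovered reads with TMM or RLE, the replicate block, no group term and leaving out each library; restricting the numbers was added after seeing the data.

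Same-numbered libraries deviated together from their group means (correlation across genes 0.272 to 0.639 in all 18 pairs, 0.242 to 0.583 without the members), so the numbers, which come from the labels, were taken to pair the samples. The members, the lists and the contrast of number 1 with numbers 2 and 3 were chosen with earlier results of these data known. The p-values of that contrast are therefore not those of a test set beforehand. Values in every library are given for the 3 genes of each role with the highest mean normalized count, folds and tests for the 5 genes per direction with the largest log2 difference in a comparison, and, from other lists, for up to 4 genes with the smallest adjusted p in number 1 against 2 and 3. Further members were named after their values were seen. Of the pathway lists, 1 gene is not reported here.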

Additional observations from a re-analysis of the deposited data

How the results depend on the processing

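In number 1 against numbers 2 and 3, the count of members called was 43 to 45 over all alternatives, including each library left out in turn. Against number 2 alone this count holds 1 gene called lower, IRF1. OAS1 and IFIT1 kept their direction and call in all alternatives. OAS2, MX2 and OASL did so too, but they passed the low-value filter only through number 1, so this is given as a description. Over all genes 4598 were called, with 2052 against number 3 alone and 6316 against number 2 alone. In number 2 against 3 the members called ran from 4 to 13 when libraries were left out. The 13 came without siCENPF of number 1, which enters this fit only through the spread, and the member median stayed at 0.07. Why this library widened the spread was not tested. The siRNA comparisons kept 0 members under every alternative but 1. With only numbers 2 and 3 and the replicate block, members called were 1 with siCENPF, 2 with siFOXM1 and 1 with both. Genes called with siCENPF, siFOXM1 and both were 671, 1295 and 1174 under the replicate block, in place of 50, 98 and 68. With only numbers 2 and 3 they were 1, 11 and 5 without the block and 290, 673 and 539 with it, and with each library left out they ran from 21 to 48, 34 to 112 and 30 to 80. Leaving out a library of an arm leaves 2 samples there and tests fewer samples. The interactions called 0 genes under all alternatives run; leaving out siNeg of number 1 or the siRNA library of number 1 gives no such contrast, so 10 libraries were left out in turn for each. Genes with few reads in numbers 2 and 3 (OAS2 58, MX2 41, IFI27 31, OASL 22, XAF1 4, over 8 libraries) have folds limited by depth.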
